A study of Drosophila melanogaster with 8 samples.

Results

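Sexual fate and X-chromosome dosage in Drosophila melanogaster are set by a small group of regulators, of which 10 are described here: Sxl, tra, dsx, fru, ix, msl-1, msl-2, msl-3, mle and mof. Their members were all probe sets whose platform annotation gave exactly 1 symbol equal to one of these names, which found 20 of 18769 tested probe sets and 10 of 11982 measured genes. The gene fru had 7 probe sets, Sxl had 3, dsx and msl-3 had 2 each, and the other 6 genes had 1 each.

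RNA came from single white prepupae, 0 hours after puparium formation, and each of the 8 arrays held the RNA of 1 animal. The 4 groups were double mutant males, double mutant females, wild type males and wild type females, with 2 arrays each. The double mutants carried mutations in bap170 and in bap180, which is now named polybromo. The wild type was the strain w1118. The mutated genes each encode a defining subunit of the PBAP chromatin remodeller, one of the fly SWI/SNF assemblies. The design sets mutants beside wild type in each sex. The labels used here name neither the alleles nor the mutants' genetic background, so effects of the mutations and of the background cannot be told apart.

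As background, Sex-lethal (Sxl) is an RNA-binding protein made in functional form in females. It directs female splicing of its own transcript and of tra, and it blocks production of MSL-2. Transformer (tra) in turn directs female splicing of dsx and fru, which encode the sex-specific transcription factors Doublesex and Fruitless, and ix encodes a cofactor of female Doublesex. In males, MSL-2 assembles with MSL-1, MSL-3, the helicase Maleless (mle) and the histone acetyltransferase Males absent on the first (mof) into a complex that binds the X chromosome and raises its transcription. Much of this control acts through splicing, translation and protein, which a probe set reads only where its probes fall in a sex-specific part of a transcript. Which exons the probe sets cover was not analysed here.

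Values are log2 of the deposited intensities. Array medians were 5.05 to 5.13 in males and 4.80 to 4.87 in females, so the arrays did not share one distribution. Across probe sets, replicate arrays correlated at r = 0.977 to 0.99. Both targeted transcripts fell in the double mutants, with differences of -1.32 ± 0.12 for Bap170 (SE, limma adjusted p = 0.00264) and -1.63 ± 0.12 for polybromo (adjusted p = 0.00121). The sex labels were checked on 12 testis and spermatocyte markers, of which 9 were higher in males and 0 lower, with log2 summed intensities of 10.1 to 10.96 in males and 8.38 to 8.85 in females. Of 7 germline markers 1, bgcn, was called higher in males (1.35, adjusted p = 0.000696), and of 6 dim Y-linked genes 1, ARY, was (0.44, adjusted p = 0.0223). The germline marker bam was called higher in double mutants (0.56, adjusted p = 0.025). It was the only one of the 7 called for genotype, and their median genotype difference was 0.005. Their log2 summed intensities overlapped, at 7.96 to 8.06 in double mutants and 7.89 to 8.16 in wild type. In whole animals, fewer cells of a type and less RNA per cell cannot be told apart. Differences were called at an adjusted p under 0.05 in limma, with Benjamini-Hochberg adjustment over all probe sets. Errors after differences are standard errors (SE) and errors after means are SD, with n = 4 arrays per sex or genotype and n = 2 within a group.

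Between the sexes, genes at several levels of the cascade were called, while between genotypes mle alone was. Of the 20 probe sets, 6 were called between the sexes, where 10.1% of all probe sets were, and 1 was called between the genotypes, where 2.79% were (1.32% higher). The 2 called higher in males were msl-2 and a probe set of dsx, against 8.09% higher over all probe sets. The 4 called lower in males were 2 probe sets of Sxl, that of tra and the other of dsx, against 2% lower over all probe sets. Over the members the median sex difference was -0.12, beside -0.13 for all probe sets, and the median genotype difference was 0.04, beside -0.01. The 4 male and 4 female arrays did not overlap for 7 of the 20 probe sets, beside 18.4% of all probe sets. For genotype, 1 probe set had all double mutant arrays on one side of all wild type arrays, beside 6.34% of all.

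**Figure D1:**
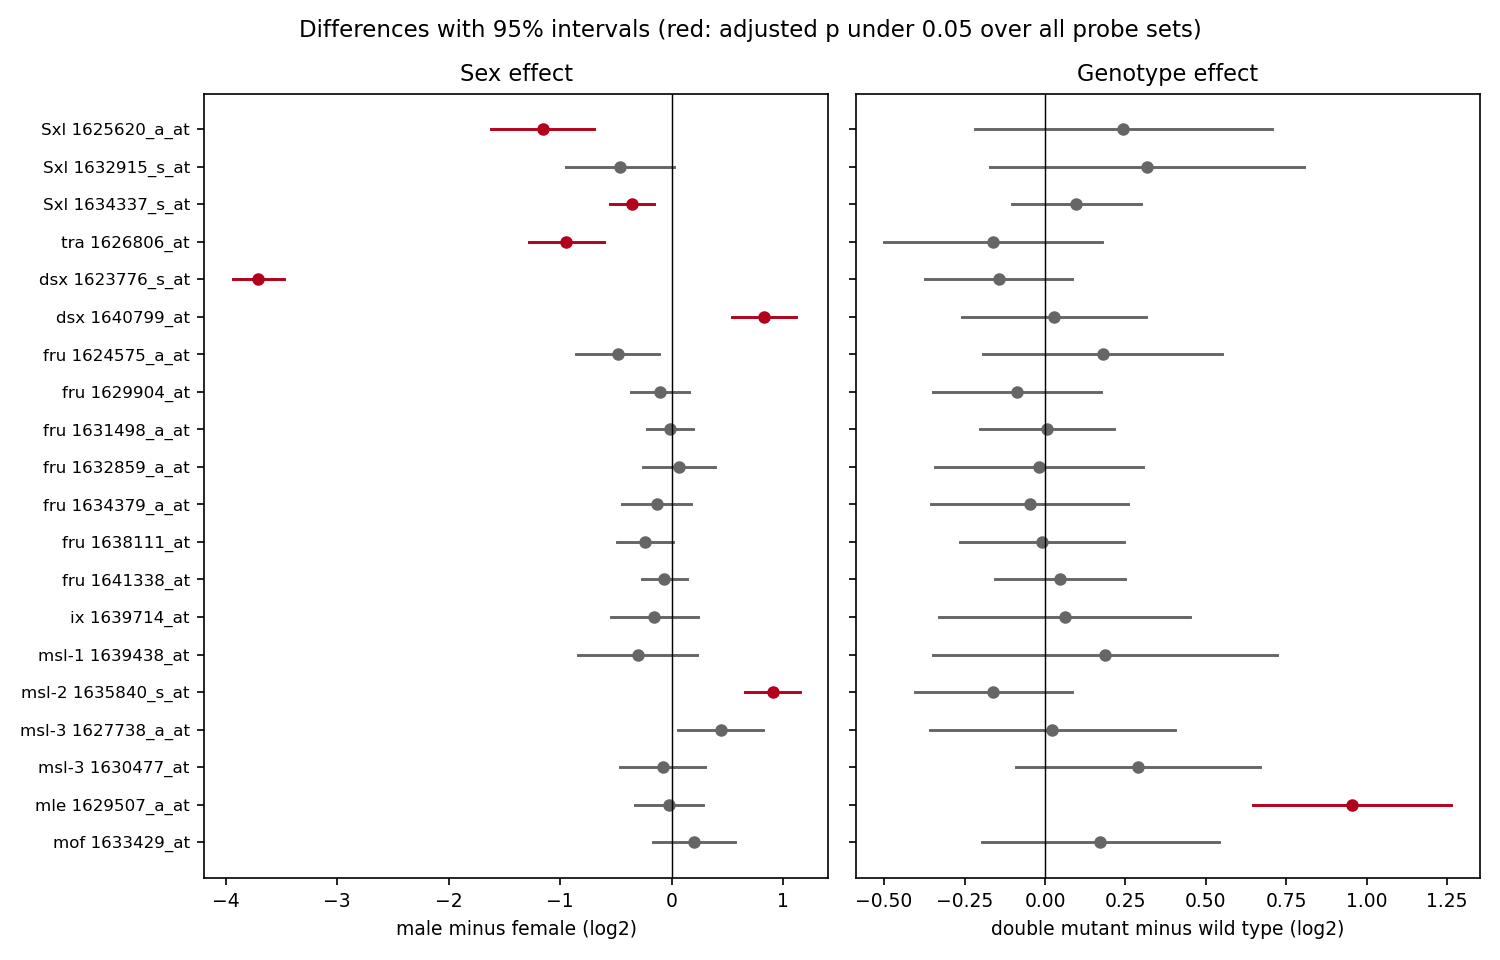
Differences of the 20 probe sets in log2 units, with the sex effect (male minus female) and the genotype effect (double mutant minus wild type) in separate panels. Points are limma estimates with 95% intervals, and red marks an adjusted p under 0.05, which holds for 6 probe sets for sex and for mle alone for genotype.

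Array scaling moved the sex contrast of the whole table. As deposited, 1518 probe sets were higher and 376 lower in males. After centring each array on its median, which shifted the median sex difference of all probe sets by -0.27, 1444 were higher and 11078 lower, and after quantile normalization 1586 were higher and 1890 lower. In the sex effect averaged over genotypes, under each of these scalings msl-2 and dsx 1640799_at were still called higher in males, and dsx 1623776_s_at, tra and Sxl 1625620_a_at lower.

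At the head of the cascade, the 3 probe sets of Sxl had lower means in males by differing amounts. No pair of them was called to differ between the sexes in the limma fit of pairs given below. Probe set 1625620_a_at had 3.61 and 3.52 in double mutant males, 4.40 and 5.20 in double mutant females, 3.34 and 3.46 in wild type males, and 4.24 and 4.71 in wild type females. All 4 male arrays lay below all 4 female arrays. The means were 3.48 ± 0.11 in males and 4.64 ± 0.42 in females, a difference of -1.16 ± 0.20 (adjusted p = 0.00866), or 2.23-fold lower in males. The males lay far below the array medians, at 10.1 to 12.2 intensity units, where fold changes are compressed. The difference was -1.24 in double mutants (adjusted p = 0.0471) and -1.08 in wild type (adjusted p = 0.0674). The call in double mutants ended without any 1 array except double mutant female replicate 1 (adjusted p up to 0.164), and after quantile normalization (0.095). Without that array or double mutant female replicate 2 the wild type difference was called (adjusted p = 0.0246), as it was after median centring (0.0231), with a variance trend (0.0202) and with a replicate block (0.0433).

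The other Sxl probe sets were brighter, with smaller estimated sex differences. Probe set 1634337_s_at had 7.75 and 7.69 in double mutant males, 8.15 and 8.10 in double mutant females, 7.64 and 7.70 in wild type males, and 8.01 and 7.95 in wild type females. Males and females again did not overlap, but the difference was small, -0.36 ± 0.08 (adjusted p = 0.0411). That call ended when any 1 array was left out, with adjusted p between 0.0741 and 0.14. It also ended with a replicate block (0.0692), among probe sets at or above the median signal (0.114) and with a variance trend (0.149, or 0.151 with a robust prior). Probe set 1632915_s_at averaged 8.01 ± 0.41 in males and 8.48 ± 0.26 in females, and its difference of -0.46 ± 0.21 did not pass (adjusted p = 0.221). It passed after median centring (-0.73, adjusted p = 0.019), which lowered the sex difference of all probe sets. For genotype the 3 probe sets differed by 0.10 to 0.32, with adjusted p of 0.656 or more.

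The next step of the cascade, tra, was lower in males. Its probe set had 7.23 and 7.01 in double mutant males, 7.82 and 8.22 in double mutant females, 7.03 and 7.44 in wild type males, and 8.17 and 8.29 in wild type females. No male array reached the lowest female array. The means were 7.18 ± 0.20 in males and 8.12 ± 0.21 in females, a difference of -0.95 ± 0.14 (adjusted p = 0.00488), or 1.93-fold lower in males. It was -0.90 in double mutants (adjusted p = 0.0475) and -0.99 in wild type (adjusted p = 0.0263). The call in double mutants ended without any 1 double mutant array or any 1 wild type female array (adjusted p up to 0.211), with a replicate block (0.0518) and with a variance trend (0.0644, or 0.0521 with a robust prior). That in wild type ended without wild type male replicate 1 or either wild type female (up to 0.154). The genotype difference was -0.16 (95% interval -0.50 to 0.18, adjusted p = 0.795).

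The 2 probe sets of dsx went opposite ways. Probe set 1623776_s_at had 3.49 and 3.43 in double mutant males, 7.18 and 7.06 in double mutant females, 3.55 and 3.55 in wild type males, and 7.43 and 7.19 in wild type females. It was bright in every female and lay far below the array medians in every male. The means were 3.50 ± 0.06 in males and 7.21 ± 0.16 in females, a difference of -3.71 ± 0.10 (adjusted p = 3.62e-06), or 13.1-fold lower in males. Only 1 of 18769 probe sets had a larger fall in males. The difference was -3.66 in double mutants (adjusted p = 6.00e-05) and -3.76 in wild type (adjusted p = 2.44e-05). On the linear scale the males held 10.8 to 11.7 intensity units and the females 133.1 to 172.7. Fold changes are compressed at signals as low as those of the males.

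Probe set 1640799_at of dsx had 5.36 and 4.97 in double mutant males, 4.27 and 4.36 in double mutant females, 5.08 and 5.15 in wild type males, and 4.44 and 4.19 in wild type females. Here every male lay above every female. The means were 5.14 ± 0.16 in males and 4.32 ± 0.11 in females, a difference of 0.83 ± 0.12 (adjusted p = 0.00415), or 1.77-fold higher in males. It was 0.85 in double mutants (adjusted p = 0.0296) and 0.80 in wild type (adjusted p = 0.0328). Within a genotype these calls depended on single arrays and on scaling. In double mutants it ended without double mutant male replicate 1 or any 1 female array (adjusted p up to 0.174), and in wild type without either wild type male or any 1 female array (up to 0.19). After median centring both ended, at 0.60 in double mutants (adjusted p = 0.0556) and 0.52 in wild type (adjusted p = 0.052). Neither dsx probe set was called between genotypes. The differences were -0.14 (95% interval -0.37 to 0.08, adjusted p = 0.673) for 1623776_s_at and 0.03 (-0.26 to 0.31, adjusted p = 0.982) for 1640799_at.

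**Figure D2:**
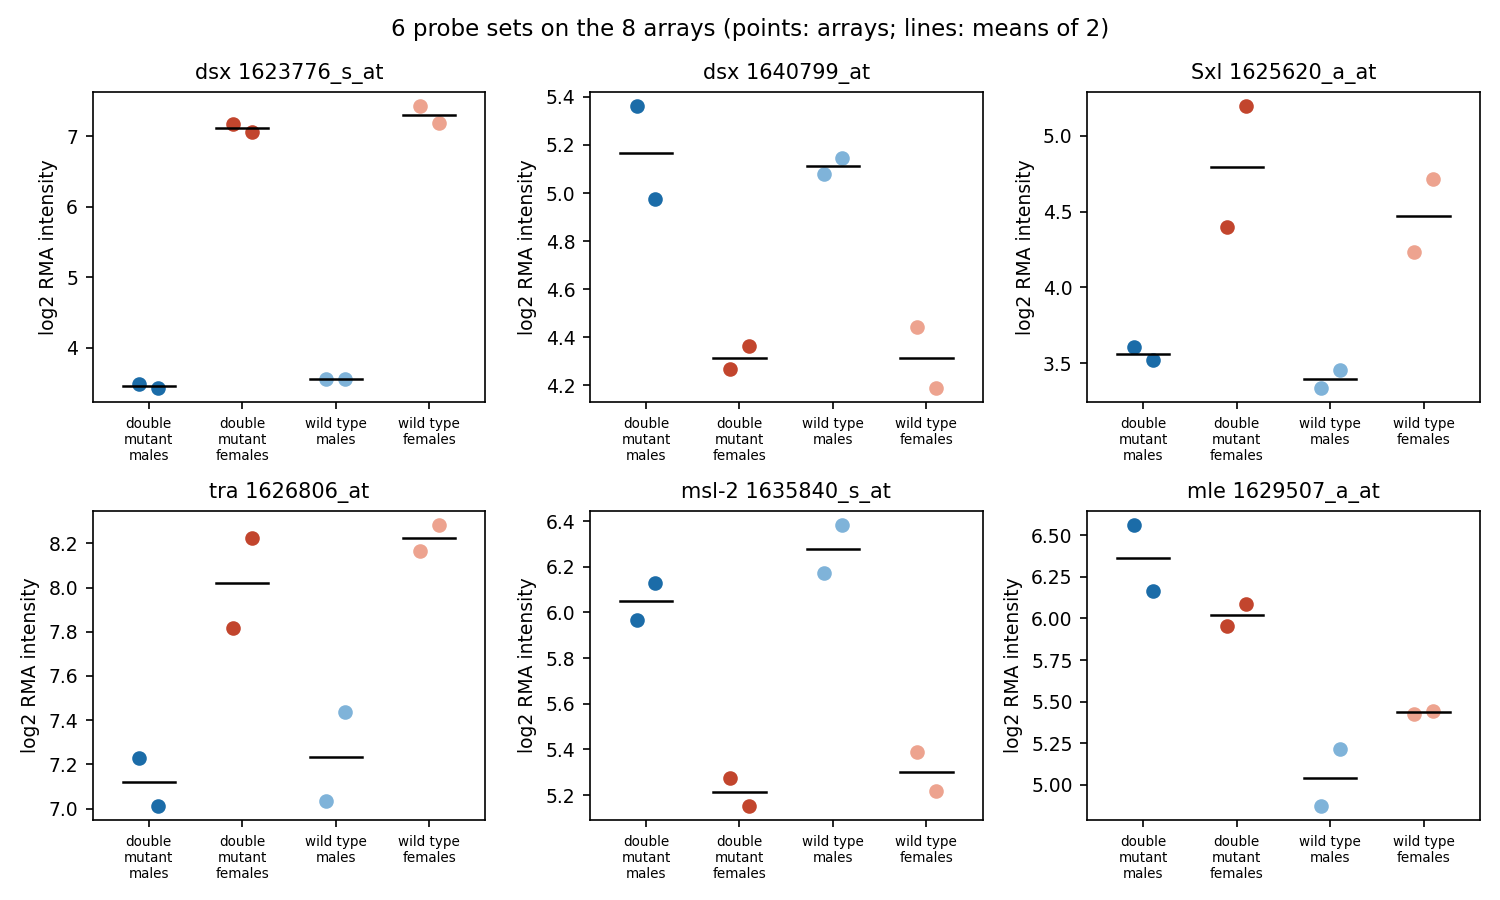
Log2 intensity of 6 probe sets on each array, with the 4 groups along the horizontal axis, points for arrays and lines for means of 2. The sexes separate in both genotypes for dsx, Sxl 1625620_a_at, tra and msl-2, with males lower except for dsx 1640799_at and msl-2, and the genotypes separate for mle.

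Because probe sets of one gene share an array, the difference between them within an array removes the scaling. For dsx, 1623776_s_at minus 1640799_at was -1.64 ± 0.16 in males and 2.90 ± 0.14 in females, a difference of -4.53 ± 0.14. Every array followed its sex, with -1.88 and -1.55 in double mutant males, 2.91 and 2.69 in double mutant females, -1.53 and -1.59 in wild type males, and 2.99 and 2.996 in wild type females. A limma fit over all 2856 pairs of probe sets of 1094 genes, added after seeing the data, called 1.75% of them between the sexes. Of the 26 pairs of the genes described here it called 1, that of dsx (adjusted p = 2.14e-06, the lowest p of all pairs). It called 0 of the 26 for genotype, beside 2.94% of all pairs.

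Other genes with several probe sets gave smaller contrasts. Sxl 1625620_a_at minus 1634337_s_at was -4.22 ± 0.07 in males and -3.42 ± 0.42 in females, a difference of -0.80 (limma adjusted p = 0.176). For msl-3, 1627738_a_at minus 1630477_at differed by 0.52 (adjusted p = 0.17), and the 21 pairs of fru gave no call. In a two-sided exact permutation test of 4 male against 4 female arrays, 5 of the 26 pairs, dsx included, reached the smallest possible p of 0.0286. After adjustment over the 26 pairs this was 0.149, so 0 passed. At least 15 pairs would have had to reach the smallest p for any to pass, so this test could hardly make a call.

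**Figure D3:**
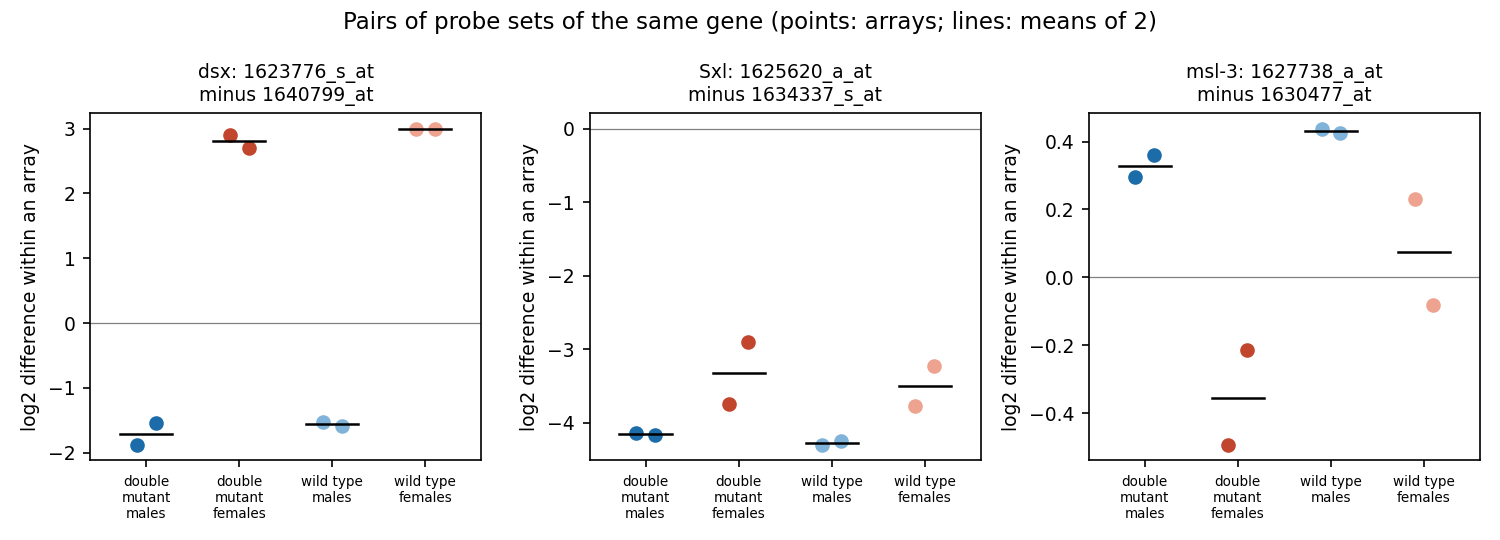
Log2 difference between paired probe sets of dsx, Sxl and msl-3 within each array, by group. Points are arrays and lines are means of 2. The dsx difference is negative in all 4 males and positive in all 4 females.

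The remaining sexual fate genes gave no calls. The cofactor gene ix had 7.03 and 6.92 in double mutant males, 6.65 and 7.33 in double mutant females, 6.62 and 6.92 in wild type males, and 7.01 and 7.12 in wild type females. These groups overlapped, with a sex difference of -0.15 (adjusted p = 0.565) and a genotype difference of 0.06 (95% interval -0.33 to 0.45, adjusted p = 0.964). All 7 fru probe sets were dim, with means between 3.52 and 4.44, and 6 of them lay below the median of every array. Their genotype differences ran from -0.09 to 0.18, and their sex differences from -0.48 to 0.07, with 0 of 7 called for either. The widest sex difference was that of 1624575_a_at, which had 4.06 and 4.23 in double mutant males, 5.15 and 4.49 in double mutant females, 4.21 and 4.10 in wild type males, and 4.39 and 4.51 in wild type females. Its sexes did not overlap, but the difference of -0.48 ± 0.16 did not pass (adjusted p = 0.118). It was -0.65 without double mutant female replicate 2. After median centring, which lowered the sex difference of all probe sets, it was called (-0.75, adjusted p = 0.0109). Under that scaling the other fru probe sets were called lower in males as well, except 1632859_a_at. Markers of neurons, where fru is best known to act, had log2 summed intensities of 9.22 to 9.89 in males and 9.47 to 9.80 in females. Of these 6 markers 0 were called for sex, beside 13.9% of all genes.

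Among the dosage compensation genes, msl-2 was the one called between the sexes. It had 5.97 and 6.13 in double mutant males, 5.27 and 5.15 in double mutant females, 6.17 and 6.39 in wild type males, and 5.39 and 5.22 in wild type females. Every male array lay above every female array. The means were 6.16 ± 0.17 in males and 5.26 ± 0.10 in females, a difference of 0.91 ± 0.10 (adjusted p = 0.00114), or 1.87-fold higher in males. The difference was 0.84 in double mutants (adjusted p = 0.0165) and 0.98 in wild type (adjusted p = 0.00596). The call in double mutants ended without any 1 double mutant array (adjusted p up to 0.109), after median centring (0.58, adjusted p = 0.0517), after quantile normalization (0.48, adjusted p = 0.118) and with a variance trend (adjusted p = 0.0657, or 0.0584 with a robust prior). That in wild type was lost when wild type female replicate 2 was left out (adjusted p = 0.0605). For genotype msl-2 differed by -0.16 (95% interval -0.41 to 0.08, adjusted p = 0.65). The testis markers were higher in males as well, as given above, and their part in the higher msl-2 signal was not tested.

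The other subunits showed no called sex difference. For msl-1, which encodes the scaffold of the complex, the values were 7.21 and 7.07 in double mutant males, 6.79 and 7.34 in double mutant females, 6.13 and 7.02 in wild type males, and 7.07 and 7.44 in wild type females. Wild type male replicate 1 lay below the other 7 arrays, and the sex difference was -0.31 (adjusted p = 0.415). For the chromodomain gene msl-3, probe set 1627738_a_at had 6.26 and 6.78 in double mutant males, 6.08 and 5.79 in double mutant females, 6.34 and 6.37 in wild type males, and 6.28 and 5.84 in wild type females. Males and females overlapped narrowly, with a difference of 0.44 ± 0.16 (adjusted p = 0.158). Its other probe set, 1630477_at, had 5.97 and 6.42 in double mutant males, 6.57 and 6.01 in double mutant females, 5.90 and 5.94 in wild type males, and 6.05 and 5.92 in wild type females, and its sexes overlapped throughout (-0.08, adjusted p = 0.762). The acetyltransferase gene mof, itself X-linked, had 5.33 and 5.59 in double mutant males, 5.41 and 4.96 in double mutant females, 5.27 and 5.17 in wild type males, and 5.31 and 4.85 in wild type females. Its groups overlapped, with a sex difference of 0.20 (adjusted p = 0.428).

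The helicase gene mle was the one member called between genotypes. It had 6.56 and 6.17 in double mutant males, 5.95 and 6.09 in double mutant females, 4.87 and 5.21 in wild type males, and 5.43 and 5.44 in wild type females. All 4 double mutant arrays lay above all 4 wild type arrays. The means were 6.19 ± 0.26 in double mutants against 5.24 ± 0.27 in wild type, differing by 0.95 ± 0.13 (adjusted p = 0.0139), or 1.94-fold higher in double mutants. The call ended without double mutant female replicate 2 (adjusted p = 0.065), wild type female replicate 1 (0.0641) or wild type female replicate 2 (0.0638), while the difference stayed between 0.86 and 1.05. By size it was the 307th largest rise of 18769. Of 7 germline markers only bam was called higher in double mutants, while their median genotype difference was 0.005, as given above. The part of germline cells in the mle difference was not tested.

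Within the sexes, mle differed between genotypes by 1.32 ± 0.19 in males (adjusted p = 0.0272), or 2.5-fold. In females the difference was 0.58 ± 0.19 (adjusted p = 0.337). The call in males, 1 of 20 beside 1.05% of all probe sets, ended without any 1 array except wild type male replicate 2 or double mutant male replicate 2 (adjusted p up to 0.116). In females 0 of 20 were called, beside 0.943% of all. There 1 of 20, mle itself, had an unadjusted p under 0.05, beside 1678 of all 18769 probe sets. The 95% interval of the mle difference in females was 0.15 to 1.02. The test of whether the genotype difference of mle itself differed between the sexes gave 0.74 ± 0.26 (unadjusted p = 0.0252, adjusted p = 0.766). The genotype by sex interaction was called for 0 of 20 members and for 0% of all probe sets, with 1 member and 1184 of all probe sets at an unadjusted p under 0.05. Sex differences of mle were 0.35 in double mutants (adjusted p = 0.393) and -0.39 in wild type (adjusted p = 0.294).

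The gene mle lies on the right arm of chromosome 2, as does the mutated Bap170, with 34 protein-coding genes between them in the Release 6 annotation. Of 86 measured genes within 50 genes on either side of Bap170, 3 were called for genotype, or 3.49%, beside 3.66% of all genes. These were mle, which was higher, and Debcl and CG43366, which were lower by -0.86 and -0.60. Linked differences between the mutant chromosome and the w1118 chromosome cannot be told apart from effects of the mutations.

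No other member was called for genotype. The next largest difference between genotypes was that of Sxl 1632915_s_at at 0.32 (adjusted p = 0.656), and that of msl-3 1630477_at was 0.29 (adjusted p = 0.558). In males msl-1 differed by 0.56 (adjusted p = 0.538), or by 0.12 without wild type male replicate 1 and 1.01 without wild type male replicate 2, and over both sexes by 0.19 (95% interval -0.35 to 0.72, adjusted p = 0.881). For mof the difference was 0.17 (-0.20 to 0.54, adjusted p = 0.802).

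Sex differences were also counted within each genotype. In double mutants 5 of 20 probe sets were called, beside 6.28% of all, and in wild type 4 of 20, beside 7.9%. The 4 in wild type were both dsx probe sets, tra and msl-2, and the 5 in double mutants were these and Sxl 1625620_a_at. For 17 of the 20 probe sets the sign of the sex difference was the same in both genotypes. The share over all probe sets was not computed, so this count is not particular to the members. The median sex difference of all probe sets was below 0 in both genotypes, at -0.09 in double mutants and -0.15 in wild type.

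**Figure D4:**
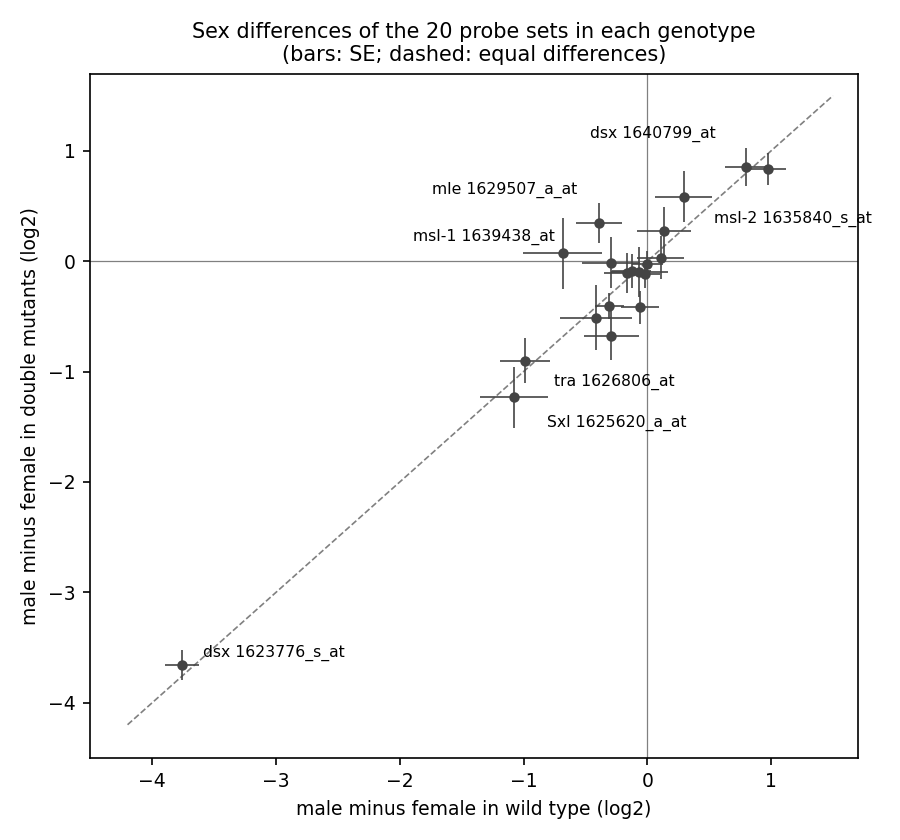
Sex difference (male minus female, log2) of each of the 20 probe sets in wild type on the horizontal axis and in double mutants on the vertical axis, with SE bars. The dashed line marks equal differences. Both dsx probe sets, tra, Sxl 1625620_a_at and msl-2 lie near the line, and mle is among those that lie above it with opposite signs.

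The genes around these members were described from 7 lists with 52 genes, of which 41 were measured. For genotype 0 of the 41 were called by limma, beside 3.66% of all genes. An unadjusted p under 0.05 was reached by 7 of the 41, beside 2495 of all 18769 probe sets. The 41 hold 1 probe set per gene and the 18769 do not, so these counts, and the like ones for sex below, compare unlike sets. The median genotype difference of the 41 was 0.10, beside -0.01 for all genes. For sex 1 of the 41 was called, lower in males, beside 13.9% of all genes (11.4% higher and 2.5% lower). An unadjusted p under 0.05 was reached by 5, beside 4608 of all 18769 probe sets. The median sex difference of the 41 was -0.07, beside -0.11 for all genes. Of the X-counting genes that switch Sxl on in the embryo, sc differed by -0.37 between the sexes (adjusted p = 0.0934). Of the splicing partners of Sxl and the factors that write and read m6A on RNA, Hakai differed by -0.38 between the sexes (adjusted p = 0.0602), fl(2)d by 0.29 between genotypes (adjusted p = 0.193) and the m6A reader gene Ythdc1 by 0.26 (adjusted p = 0.335). Unr, which acts with Sxl to block msl-2 translation, differed by 0.31 between genotypes (adjusted p = 0.466). The Tra partner gene tra2 differed by 0.37 between genotypes (adjusted p = 0.286) and by 0.31 between the sexes (adjusted p = 0.211).

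Chromatin partners of the MSL complex gave one value close to the threshold. JIL-1, a histone kinase gene, differed by 0.55 ± 0.12 between genotypes (adjusted p = 0.0721), and after quantile normalization its difference of 0.54 passed (adjusted p = 0.0327). Iswi, which encodes a remodelling ATPase, differed by -0.27 (adjusted p = 0.313). In the NSL complex, which shares MOF with the MSL complex, dgt1 differed by 0.16 between genotypes (adjusted p = 0.602) and wds by -0.35 between the sexes (adjusted p = 0.279). Without wild type male replicate 2 the sex difference of wds was called (-0.55, adjusted p = 0.0237). After median centring and after quantile normalization, sc, Hakai, JIL-1 and wds were called lower in males. So were 11078 and 1890 of all 18769 probe sets under these scalings. Iswi was called higher in males after quantile normalization (0.30, adjusted p = 0.0377).

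Among the targets and partners of Doublesex, the yolk protein gene Yp3 was the gene called for sex. Yp3 had 4.42 and 4.50 in double mutant males, 10.38 and 10.30 in double mutant females, 4.53 and 4.42 in wild type males, and 7.42 and 4.70 in wild type females. Both double mutant females were high, while the wild type females lay far apart and one of them was near the males. The sex difference was -3.73 ± 0.52 (adjusted p = 0.00315). The genotype difference was 2.13 ± 0.52 (adjusted p = 0.102), and in females it was 4.28 ± 0.73 (adjusted p = 0.0603), with an interaction of -4.30 ± 1.04 (adjusted p = 0.766). Without wild type female replicate 1 the genotype difference over both sexes was 2.81, and without wild type female replicate 2 it was 1.45. Either omission left 1 wild type female, so the spread between the wild type females no longer entered the fit. The other yolk protein genes were dim and not called, with sex differences of -0.17 for Yp1 (adjusted p = 0.427) and -0.26 for Yp2 (adjusted p = 0.289) and genotype differences of 0.06 and 0.10. The fat body, where yolk protein genes are expressed, had 0 of its 3 measured markers called for genotype or sex, beside 3.66% and 13.9% of all genes.

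X-linked output, on which dosage compensation acts, was summarised as the median log2 intensity of 1869 X-linked genes minus that of 9945 genes on the large autosomal arms. It was -0.33 and -0.24 in double mutant males, -0.02 and -0.03 in double mutant females, -0.27 and -0.26 in wild type males, and 0.04 and 0.02 in wild type females. For these genes the X was below the autosomes in every male and near them in every female. Among genes at or above the median signal the males were -0.29 to -0.18 and the females -0.10 to -0.05. Over all probe sets with 1 symbol the males were -0.41 to -0.29 and the females -0.17 to 0.02. For the 1869 and 9945 genes the means were -0.27 ± 0.04 in males and 0.00 ± 0.03 in females. They differed by -0.28 (two-sided exact permutation p = 0.0286, the smallest that 4 against 4 arrays allow). Between genotypes the means were -0.15 ± 0.15 in double mutants against -0.12 ± 0.17 in wild type, differing by -0.03 (exact p = 0.6). Both genotypes held both sexes, so the sex difference entered these SDs and the permutations. The genotype test could therefore hardly detect a difference smaller than that between the sexes.

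The medians that make up this difference moved separately. The X medians were 6.23 and 6.11 in double mutant males, 5.93 and 6.18 in double mutant females, 5.98 and 6.26 in wild type males, and 6.14 and 6.18 in wild type females, so the sexes overlapped. The autosomal medians were 6.56 and 6.34 in double mutant males, 5.95 and 6.20 in double mutant females, 6.25 and 6.52 in wild type males, and 6.10 and 6.16 in wild type females, and every male lay above every female. Gene by gene the picture differed, since the median sex difference was -0.18 on the X and -0.11 to -0.09 on the large autosomal arms. By that measure the typical autosomal gene was lower in males, and the X and autosomes lay closer together. Genes called higher in males made up 9.52% of X-linked genes, beside 10.9% to 14.4% on the large autosomal arms. Genes called lower in males made up 4.87% on the X, beside 1.83% to 2.54%. The testis markers were higher in males too, and their part in the lower X to autosome difference was not tested.

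**Figure D5:**
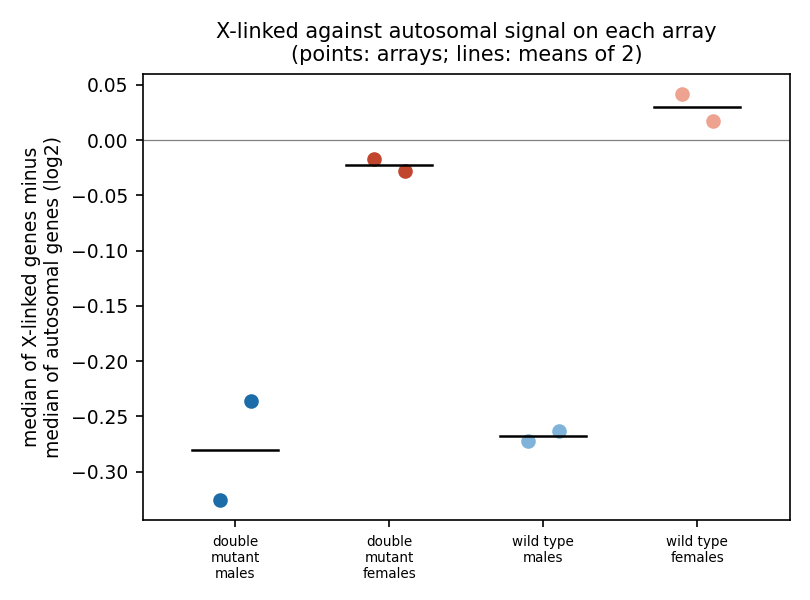
Median log2 intensity of X-linked genes minus that of autosomal genes on each array, by group. Points are arrays and lines are means of 2. The 4 males lie between -0.33 and -0.24 and the 4 females between -0.03 and 0.04.

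Profiles most like those of 3 members were taken over the 8 arrays among 7794 genes, as a description, since arrays of a group share genotype and sex. The profile of mle was closest to those of Jra, the Drosophila Jun gene (r = 0.978), Evi5 (r = 0.977) and CG11854 (r = 0.974). That of msl-2 was closest to PPYR1 (r = 0.995), Porin2, a mitochondrial porin gene (r = 0.987), and Erk7 (r = 0.986). That of Sxl 1632915_s_at was closest to stau (r = 0.971), Cog6 (r = 0.964) and JMJD5 (r = 0.955).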

How the data were processed

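Total RNA of single prepupae was labelled with biotin by the one-cycle protocol for Affymetrix arrays of 1 colour, as described per the labels' protocols. The authors deposited linear RMA intensities, per the submitters' processing notes. This method removes background, normalizes arrays and combines the probes of a set, and its version is not given in the sources used here. Groups came from the sample titles. Of 18952 probe sets, 183 controls were left out and 18769 tested. The platform annotation gave 1 symbol for 13647, several for 402 and none for 4720. Names, chromosome arms and gene order came from a Release 6 table, and no coordinates or sequences are printed. Genes with several probe sets were represented, for lists and chromosome medians, by the one with the highest mean.

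Log2 values were fitted in limma 3.58.1 (R 4.3.3) with lmFit and eBayes on 4 group means, without trend. There were 4 residual degrees of freedom and 3.03 from the prior. The genotype effect was double mutant minus wild type, averaged over sexes, and the sex effect male minus female, averaged over genotypes. The fit was tested on simulated data. The number of arrays limits the precision, and p-values measure the spread between single animals. The members and lists were chosen with earlier results of these data known. All probe sets of the 10 genes were named, with called list genes, otherwise up to 2 per list among those of lowest p. CG43366, Debcl, bgcn, bam, ARY, Yp1 and Yp2 were named after their values were seen. Pairs of probe sets of a gene and X minus autosome medians were compared with two-sided exact permutation tests over arrays. Alternatives were median centring, quantile normalization, a filter on dim probe sets, a variance trend (also robust), a replicate block, array weights and the omission of each array. Deviations of same-numbered arrays correlated at -0.304 to 0.413 over 6 pairs, so the numbers were not taken as pairs.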

Additional observations from a re-analysis of the deposited data

How the results depend on the processing

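Over 15 alternative settings, 1952 of 2037 recomputed member values kept their side of the threshold, 64 lost a call and 21 gained one. Of the 1952, 1825 kept their sign and 127, none of them called, changed it; no called value changed sign. Member probe sets called for sex numbered 6, but 13 of the 20 after median centring, beside 12522 of all 18769 probe sets. Among probe sets at or above the median signal, where 11 of the 20 could be tested, they numbered 3, beside 1133 of all 9385. Members called for sex in double mutants numbered 5, but 3 after quantile normalization, beside 1394 of all 18769 probe sets. They also numbered 3 with the signal filter, beside 888 of 9385. With a variance trend they numbered 3 as well, robust or not, beside 1332 and 1289 of 18769. The call of mle in males was 1, but 0 with the replicate number as a block (adjusted p = 0.0502); the block left every other count of calls within 1.5 times, ended those of Sxl 1634337_s_at for sex (0.0692) and tra in double mutants (0.0518), and added that of Sxl 1625620_a_at in wild type (0.0433). In wild type, mle was lower in males after median centring (-0.67, adjusted p = 0.0397) and quantile normalization (-0.69, adjusted p = 0.0325). List genes called for genotype numbered 0, but 1 after quantile normalization (JIL-1), beside 608 of all 18769 probe sets, or with a variance trend (Yp3), beside 582. List genes called for sex numbered 1 of 41, but 18 after median centring and 6 after quantile normalization. Beside these, 12522 and 3476 of all 18769 probe sets were called. These totals and those for genotype are not reduced to 1 probe set per gene, as the lists are. Pairs of probe sets called numbered 0 in the exact test, which could hardly make a call, but 1 (dsx) in the limma fit over all pairs. Leaving out each array in turn gave 0 to 1 calls for genotype (247 to 488 of all 18769 probe sets) and for genotype in males (105 to 272). For sex it gave 5 to 6 (1418 to 1843 of all). Within double mutants sex gave 1 to 4 (681 to 1308), and within wild type 1 to 4 (943 to 1454). In the lists it gave 0 to 1 for genotype and 1 to 2 for sex. Fewer arrays leave fewer residual degrees of freedom. The X minus autosome difference between the sexes stayed between -0.29 and -0.26 with 1 array left out and was -0.18 among bright genes. Causes were otherwise not tested. Signal near background limits fru and the male levels of dsx 1623776_s_at and Sxl 1625620_a_at.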
